A study of Oryza sativa Indica Group with 8 samples.

Results

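The light-harvesting antenna of photosystem I in rice is encoded in the nucleus by the Lhca genes, and the 6 members described here are Lhca1 (LOC_Os06g21590), Lhca2 (LOC_Os07g38960), Lhca3 (LOC_Os02g10390), Lhca4 (LOC_Os08g33820), Lhca5 (LOC_Os02g52650) and Lhca6 (LOC_Os09g26810). They were chosen by locus identifier and not by a rule on their values, though with earlier results of these data known. All 6 were found among the 35961 listed loci. RNA-seq was performed on the top expanded leaves of GL and OE5, with 2 libraries per genotype. GL is the rice variety Guangluai 4, the untransformed parent here, and OE5 is a single transgenic line that overexpresses OsPRR37, a component of the circadian clock, in the GL background. According to the study, the OsPRR37 allele of GL itself is a loss-of-function allele. The promoter that drives the transgene is not given in the sources used here. Plants of both genotypes were 15 days old, had been kept at 28°C under a cycle of 14 h light and 10 h dark, and were sampled in the morning. The comparison of GL with OE5 asks which genes differ in expression in a line that overexpresses OsPRR37 in this loss-of-function background. As OE5 is a single line, overexpression and other differences of this line from GL cannot be told apart here.

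Lhca proteins bind chlorophyll a and b and carotenoids and pass excitation energy to the photosystem I core. Lhca1 to Lhca4 form a crescent on one side of the core, built of a Lhca1-Lhca4 dimer and a Lhca2-Lhca3 dimer. Lhca5 and Lhca6 are minor proteins, known from Arabidopsis as linkers between photosystem I and the NDH complex of cyclic electron flow. Transcripts of light-harvesting genes are known to be abundant in green leaves, to respond to light and to follow the circadian clock.

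The counts on genes summed to between 43423801 and 48284992 per library. These sums exceed the read pairs per library that the study reports, so both mates of a pair appear to be counted. The TMM factors, which correct each library's size for its composition, were 0.990 and 0.914 in GL and 1.04 and 1.06 in OE5. Markers of leaf tissue were high. Of 4 Rubisco small subunit loci, 3 were listed, with 3220 to 60451 TPM (a transcript level per gene length, scaled to the same total in each library), and LOC_Os12g17600 was the highest gene in all 4 libraries. Of 3 loci taken as markers of root, 2 were listed. LOC_Os03g01700 was at 0 in 3 libraries and at 0.0256 TPM in GL-1. LOC_Os02g51110 had 12.0 and 11.4 TPM in the GL libraries and 8.47 and 6.97 in the OE5 libraries. Its log2 ratio of OE5 to GL was -0.75 (SE, the standard error, 0.14, edgeR adjusted p = 0.0208). This call was lost in limma-trend on log2(TPM + 1) (adjusted p = 0.0881), and in edgeR without OE5-1 (adjusted p = 0.0801) and without OE5-2 (adjusted p = 0.265). The level of the locus did not exceed 12.0 TPM, and the summed level of the list was the same as that of the locus to 3 digits. The part of this difference in the results was not tested. In such bulk leaf samples, fewer cells of a type and less RNA per cell cannot be told apart.

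The Lhca family spanned a range from 9.33 to 11560 TPM, and the order of its members was the same in every library, namely Lhca4, Lhca1, Lhca3, Lhca2, Lhca5 and Lhca6. Lhca4, whose protein pairs with Lhca1 in the crescent, had 11454 and 9277 TPM in the first and second library of GL and 11560 and 10510 in those of OE5. The OE5 libraries lay within or just above the GL range, and Lhca4 ranked from 7 to 13 among all loci. Lhca1 had 8207 and 7032 TPM in GL and 8118 and 6920 in OE5. Its GL and OE5 values overlapped almost completely, with a mean of 7620 ± 831 TPM for GL and 7519 ± 847 TPM for OE5 (SD, n = 2 each). Lhca3, which lies beside Lhca2 in the other dimer, had 6141 and 4903 TPM in GL and 5147 and 4754 in OE5. The highest value was in GL-1, and GL-2 lay between the OE5 libraries. Lhca2 had 5109 and 4482 TPM in GL and 4327 and 3980 in OE5. It was the only member whose TPM values did not overlap between the genotypes, where 53.7% of the 19280 tested genes were separated in this way.

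The minor members were far lower. Lhca5 had 220 and 177 TPM in GL and 226 and 194 in OE5, so that the higher library of each genotype exceeded the lower library of the other. For Lhca6, GL-1 had 17.0 TPM and GL-2 had 9.33, while OE5-1 had 15.5 and OE5-2 had 15.7. A single library, GL-2, was low, and the other three were alike. These values rest on 817, 459, 795 and 819 counts for Lhca6, and the exact Poisson 95% interval of the GL-2 count, 418 to 503, lies below that of GL-1, 762 to 875. Such intervals cover counting error only, and they are too narrow where both mates of a read pair are counted. By TPM, Lhca5 ranked from 476 to 557 and Lhca6 from 6008 to 9036 among all loci, where Lhca2 ranked from 29 to 33. Lhca5 rested on 6520 to 8626 counts per library, and the major members on 141957 to 294572.

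**Figure D1:**
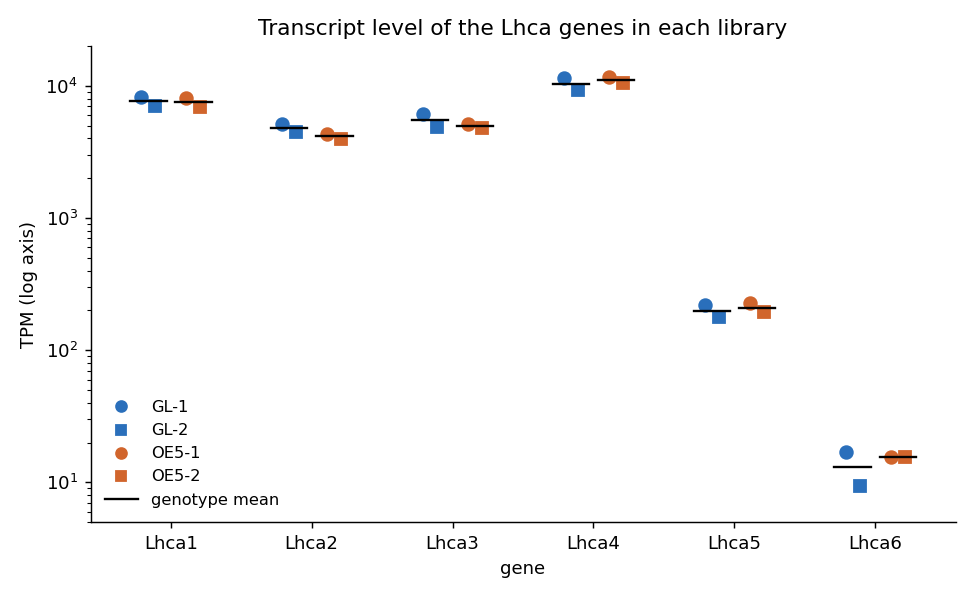
TPM of each Lhca gene (log axis) in the 4 libraries. Circles and squares are replicates 1 and 2, blue is GL, orange is OE5, and a bar is the mean of a genotype (n = 2). Lhca1 to Lhca4 lie between 3980 and 11560 TPM, Lhca5 between 177 and 226, and Lhca6 between 9.33 and 17.0, with its lowest value in GL-2.

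Between neighbours in this order, the steps differed in size. Within a library, Lhca4 was 1.32 to 1.52 times Lhca1, and Lhca1 was 1.34 to 1.58 times Lhca3. The smallest step was from Lhca3 to Lhca2, with a ratio of 1.09 to 1.20. Lhca3 exceeded Lhca2 inside each library, but across libraries their TPM ranges overlapped, and in GL the means of 5522 ± 876 and 4796 ± 443 (SD, n = 2) did not differ beyond their spread. Between Lhca2 and Lhca5 the ratio was 19.2 to 25.3, and between Lhca5 and Lhca6 it was 12.4 to 19.0. In raw counts, which also reflect gene length, Lhca3 exceeded Lhca1 in GL-1 only, so the order given here holds per length.

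None of the 6 Lhca genes was called as differentially expressed between GL and OE5. All libraries were from the same morning hour, so levels at other hours and shifts in rhythm were not tested. A gene was called when edgeR's quasi-likelihood test gave an adjusted p below 0.05 and the levels differed by more than 1.5-fold. By this rule 3.39% of the tested genes were called, 2.11% as higher and 1.28% as lower in OE5. DESeq2 and limma-trend on log2(TPM + 1) called 0 of the 6 as well, where they called 4.0% and 3.0% of all tested genes. At an unadjusted p under 0.05, edgeR had 1 of the 6, DESeq2 had 2 and limma-trend had 0. The shares of all tested genes were 15.2% by edgeR, 12.6% by DESeq2 and 19.5% by limma-trend. The log2 fold changes were below 0 for 5 of the 6, where 51.1% of all tested genes were below 0. The median was -0.13 for the 6 genes and -0.01 for all tested genes. The median of the 6 was -0.02 without GL-1 and -0.03 without OE5-2, with 3 of 6 below 0 in each case. It was -0.24 without GL-2 and -0.25 without OE5-1. On log2(TPM + 1) it was 0.03, with 3 of 6 below 0, where 23.2% of all tested genes were below 0.

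Normalized counts, scaled by the TMM factors, placed the dimer partners Lhca2 and Lhca3 lowest in OE5 relative to GL. For Lhca2, GL averaged 173963 ± 9411 normalized counts and OE5 averaged 134941 ± 9005 (SD, n = 2 each). The log2 fold change of Lhca2 was -0.37 (SE 0.14, 95% interval -0.69 to -0.04, adjusted p = 0.259 from edgeR). The unadjusted p was 0.0311, and the adjusted p from DESeq2 was 0.0515. Lhca3 had 211798 ± 25535 normalized counts in GL and 170281 ± 10854 in OE5 (SD, n = 2). Its log2 fold change was -0.31 (SE 0.15, 95% interval -0.66 to 0.03, adjusted p = 0.388 from edgeR). For both genes each OE5 library was below each GL library on this scale. This also held for 22.5% of all tested genes and for 25 of the 46 with a mean of at least 100000 normalized counts. The 25 include Lhca2 and Lhca3 themselves. In either direction, 44.6% of the tested genes were separated.

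Lhca1 and Lhca4, the other dimer partners, lay nearer to 0. Lhca1 had a log2 fold change of -0.18 (SE 0.16, 95% interval -0.53 to 0.17, adjusted p = 0.697 from edgeR). Lhca4 had 273879 ± 30231 normalized counts in GL and 261424 ± 19564 in OE5 (SD, n = 2), a log2 fold change of -0.07 (SE 0.16, 95% interval -0.42 to 0.28, adjusted p = 0.907 from edgeR). Lhca5 was at -0.08 (SE 0.13, 95% interval -0.38 to 0.22, adjusted p = 0.865 from edgeR). For Lhca1, Lhca4 and Lhca5 the intervals do not reach a change of 1.5-fold in either direction, and smaller changes lie inside them. The intervals of Lhca2 and Lhca3 include a fall of 1.5-fold. Lhca6 was at 0.09 (SE 0.25, 95% interval -0.51 to 0.69, adjusted p = 0.923 from edgeR), so a rise of 1.5-fold lies inside its interval.

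The directions of Lhca4 and Lhca5 depended on the scale and on single libraries, and that of Lhca6 on a single library. Lhca4 and Lhca5 turned to 0.10 and 0.08 on log2(TPM + 1), which has no TMM factors and on which the median of all tested genes was 0.14. On that scale Lhca1 was at -0.02, Lhca2 at -0.21 and Lhca3 at -0.15, nearer to 0 than with TMM. Without GL-1, edgeR put Lhca4 at 0.06 and Lhca5 at 0.05, and without OE5-2 at 0.01 and 0.03. Relative to the median of all tested genes, Lhca1 to Lhca5 lay lower on both scales in the full set of libraries. Lhca6 was at -0.24 without GL-2 and at 0.55 without GL-1 (adjusted p = 0.0165 from edgeR, short of the fold limit). Its sign thus followed which GL library was kept.

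**Figure D2:**
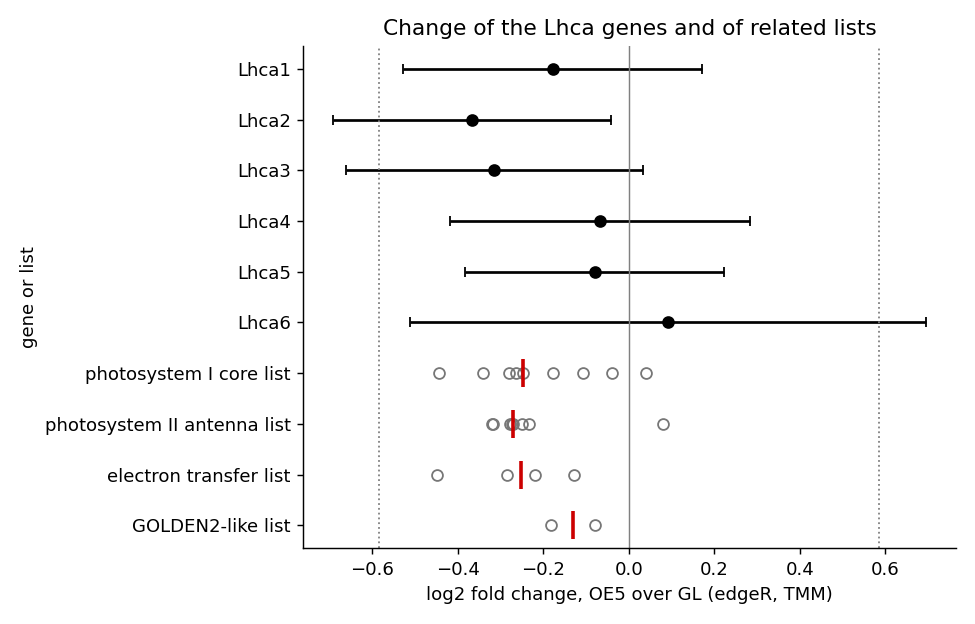
Log2 fold change of OE5 over GL from edgeR. Black points are the Lhca genes with their 95% intervals, open circles are single genes of 4 related lists, red bars are list medians, and dotted lines mark the 1.5-fold limit. All points lie inside the limit, but the intervals of Lhca2, Lhca3 and Lhca6 extend past it. Lhca2 is the only member whose interval (-0.69 to -0.04) does not reach 0.

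The 4 major members are among the most abundant transcripts of the leaf, and most genes of that abundance had a fold change below 0 with TMM scaling. Of the 46 tested genes with a mean of at least 100000 normalized counts, 42 had a log2 fold change below 0, with a median of -0.25, and 1 was called. Of the 572 genes with at least 10000, 419 were below 0, with a median of -0.14, and 252 were lower in each OE5 library than in each GL library. Lhca2 (-0.37) and Lhca3 (-0.31) lay below the median of the former class, and Lhca1 (-0.18) and Lhca4 (-0.07) above it. Both minima were chosen after the values were seen. Both classes include Lhca1 to Lhca4 themselves and loci of the photosynthesis lists below, so they are not a background apart from these genes.

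**Figure D3:**
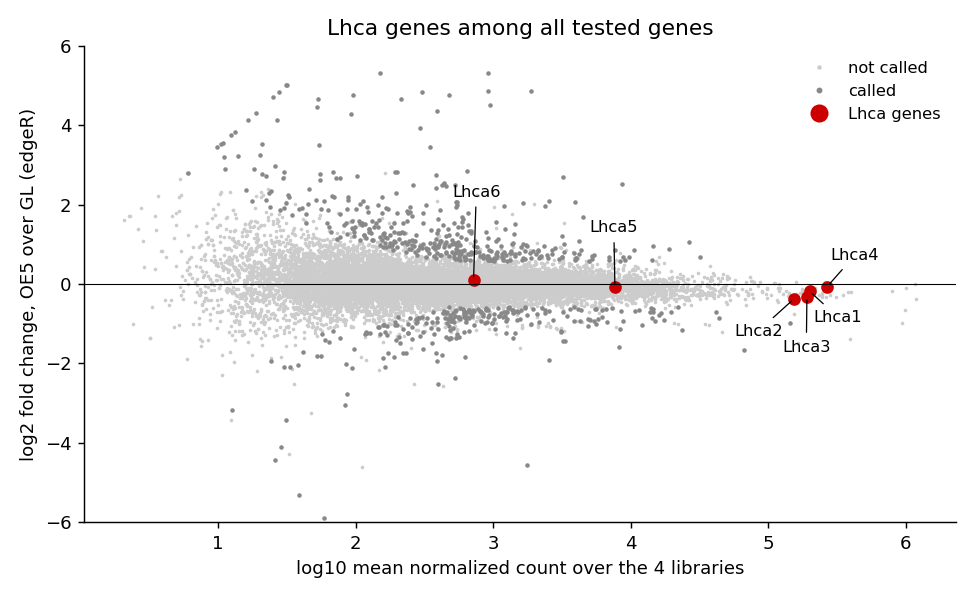
Log2 fold change of OE5 over GL (edgeR) against the log10 mean normalized count of each tested gene, with called genes in dark grey and the Lhca genes in red. The axis leaves out 15 genes beyond 6 in either direction. Lhca1 to Lhca4 lie at the abundant end, where most genes are below 0.

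As a family, the Lhca transcripts took up 3.11% and 2.59% of all TPM in the GL libraries and 2.94% and 2.64% in the OE5 libraries. The sums were 31149 and 25881 TPM in GL and 29393 and 26374 TPM in OE5, so both OE5 libraries lay between the GL libraries. The difference in mean log2 summed TPM was -0.03, with a pooled SD of 0.15 (two-sided exact permutation p = 1, where 2 libraries against 2 allow no p under 0.33). When TPM was divided by the TMM factor, the sums were 31478 and 28327 in GL and 28212 and 24843 in OE5. The difference was -0.17, with the smallest possible p of 0.33 in the exact permutation test, and the genotypes were separated only by the small step from 28327 to 28212. Without GL-1 the difference in summed TPM was 0.11, and without OE5-2 it was 0.05, so its sign was not stable.

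Proportions within the family are free of the library's scale. Lhca4 made up 36.8% and 35.8% of the summed Lhca TPM in GL and 39.3% and 39.9% in OE5. The shares of Lhca2 were 16.4% and 17.3% in GL and 14.7% and 15.1% in OE5. Lhca3 took 19.7% and 18.9% in GL and 17.5% and 18.0% in OE5. Thus Lhca4 took a larger share and Lhca2 and Lhca3 a smaller share in each OE5 library than in either GL library, while Lhca1 stayed between 26.2% and 27.6% with overlapping values. Of the 15 ratios between members, 10 did not overlap between the genotypes. Over all pairs of tested genes with TPM above 0 in each library, 46.9% of ratios were separated, and the 15 ratios share the same 6 genes.

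A further ratio set one dimer against the other. The TPM of Lhca1 plus Lhca4 over that of Lhca2 plus Lhca3 was 1.75 and 1.74 in the GL libraries and 2.08 and 2.00 in the OE5 libraries. The GL libraries were nearly equal and both OE5 libraries were higher. Of the ratios between single tested genes, 46.9% were separated by genotype in either direction. The means were 1.74 ± 0.00686 in GL and 2.04 ± 0.0574 in OE5 (SD, n = 2), a log2 difference of 0.22 with a pooled SD of 0.03. The two-sided exact permutation test gave p = 0.33, the smallest value possible. The difference was between 0.20 and 0.25 when any 1 library was dropped. This grouping follows the known dimers but was chosen after the values were seen, so it is given as a description.

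Within the dimers, Lhca4 over Lhca1 was 1.40 and 1.32 in GL and 1.42 and 1.52 in OE5, so that the genotypes were separated only by the step from 1.40 to 1.42. Lhca3 over Lhca2 was 1.20 and 1.09 in GL and 1.19 in both OE5 libraries, with overlapping values. The minor members Lhca5 and Lhca6 together came to 0.768% and 0.727% of the TPM of Lhca1 to Lhca4 in GL and to 0.827% and 0.801% in OE5. The log2 difference was 0.12 with a pooled SD of 0.05 (two-sided exact permutation p = 0.33, the smallest possible). The genotypes did not overlap for this ratio, where 46.9% of the ratios between single tested genes did not overlap either. Lhca5 supplied nearly all of the minor members' TPM, with Lhca6 at 5.26% to 8.08% of Lhca5.

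**Figure D4:**
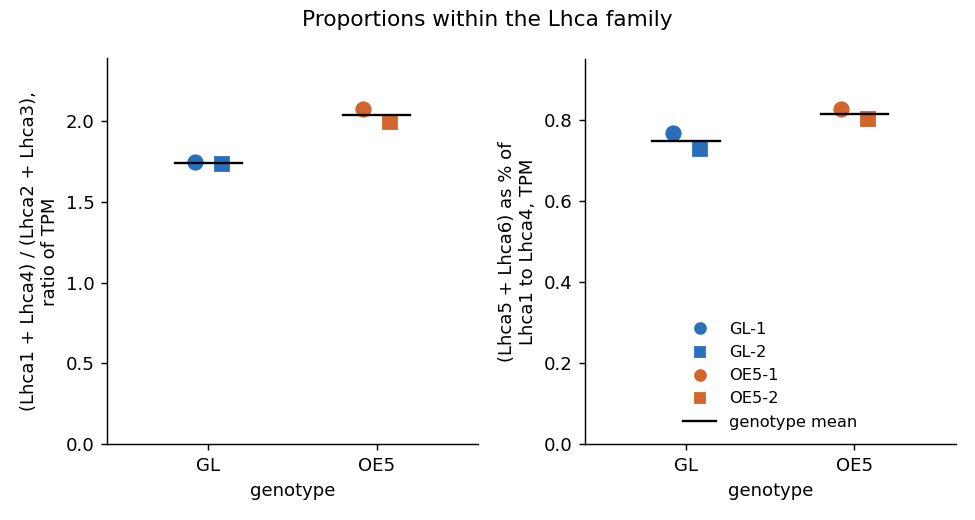
Ratios of TPM within the Lhca family by genotype, with axes from 0. Circles and squares are replicates 1 and 2 and bars are means (n = 2). The left ratio is 1.74 and 1.75 in GL and 2.00 and 2.08 in OE5, and the right share is 0.727% and 0.768% in GL and 0.801% and 0.827% in OE5.

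The replicates of a genotype differed in a way the members shared. All 6 Lhca genes had a higher normalized count in GL-1 than in GL-2 and in OE5-1 than in OE5-2, which held for 23.2% of all tested genes. It also held for 32 of the 46 genes with at least 100000 normalized counts, the class of Lhca1 to Lhca4. The 32 include Lhca1 to Lhca4 themselves and loci of the lists named next. Outside the family it held for 9 of 9 photosystem I core loci, 7 of 8 loci of the photosystem II antenna and 4 of 4 electron transfer loci. The median log2 difference of the 6 genes was 0.23 between the GL libraries and 0.14 between the OE5 libraries, against 0.00 and 0.01 over all tested genes. Lhca4 is an example, with a log2 difference of 0.23 between the GL libraries and 0.15 between the OE5 libraries, both larger than its fold change of -0.07 between genotypes. Lhca6 differed by 0.79 between the GL libraries and by 0.00 between the OE5 libraries. Lhca2, at 0.11 and 0.14, differed less between replicates than between genotypes. The labels do not say that a replicate number marks a shared harvest or preparation.

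**Figure D5:**
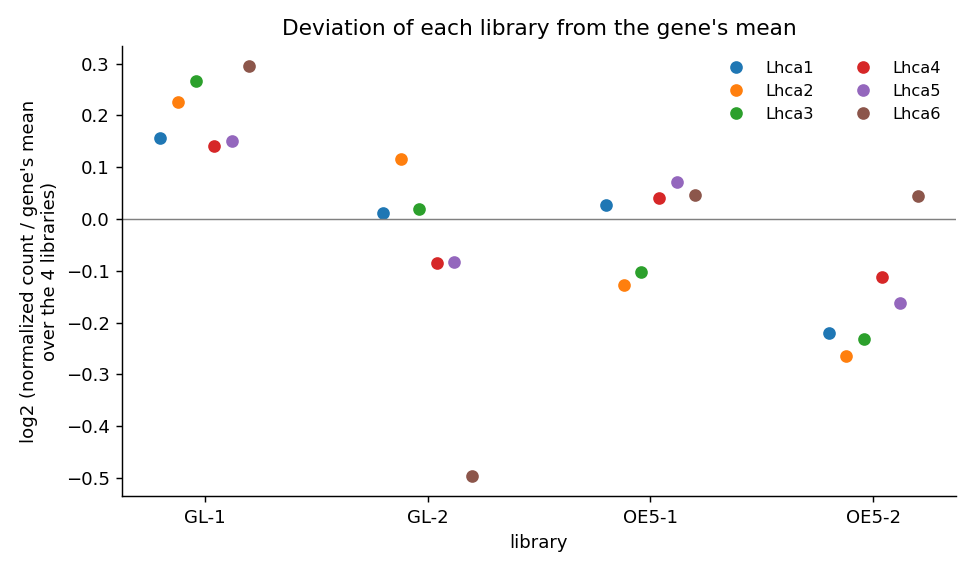
Log2 of each library's normalized count over the gene's mean of the 4 libraries, for the 6 Lhca genes. GL-1 is the highest library for each gene, GL-2 is low for Lhca6, and the OE5-2 value is at or below the OE5-1 value for each gene.

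Genes outside the family were searched for those nearest to the members' mean profile. Among 6540 genes with at least 1000 normalized counts on average and outside the lists used here, likeness was the root mean square difference, over the 4 libraries, between a gene's centred log2 normalized count and the mean centred profile of the 6 members. The closest were LOC_Os09g07570 (0.0032) and LOC_Os02g50620 (0.0057), and 111 genes lay under 0.05. Of the members themselves, only Lhca4 (0.046) and Lhca5 (0.048) lay under 0.05. Lhca1 was at 0.065, Lhca3 at 0.086, Lhca2 at 0.13 and Lhca6 at 0.23, so the mean is not a profile that all members share. The nearest genes were picked by this search, so their closeness is a description only. LOC_Os09g07570 had 140, 109, 131 and 120 TPM in GL-1, GL-2, OE5-1 and OE5-2. The files do not pair either locus with a name.

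Related photosynthesis genes were set beside the members as lists of loci. The lists come from general knowledge of rice locus numbers, the files pair no locus with a name, and single loci are given by identifier only. The photosystem I core, to which the Lhca crescent attaches, was covered by 9 nuclear loci. None was called, where 3.39% of all tested genes were. Of the 9, 8 had a log2 fold change below 0, and the median was -0.25. Below 0 were 51.1% of all tested genes and 73.3% of those with a mean of at least 10000 normalized counts. The latter class includes all 9 loci. Of genes with a mean of at least 100000, which include some of these loci, 91.3% were below 0. The 9 values ran from -0.44 for LOC_Os03g56670 (SE 0.14, edgeR adjusted p = 0.154) to 0.04 for LOC_Os07g05480. In DESeq2, LOC_Os03g56670 had an adjusted p of 0.0178 and missed a call through the fold limit. At an unadjusted p under 0.05, edgeR had 1 of the 9 and DESeq2 had 3. Of all tested genes, edgeR had 15.2% and DESeq2 had 12.6%.

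The photosystem II antenna list, the Lhcb relatives of the Lhca proteins, held 8 loci and none was called. Of the 8, 7 were below 0, the median was -0.27, and the range was -0.32 for LOC_Os03g39610 to 0.08 for LOC_Os01g52240. By unadjusted p, edgeR had 0 of the 8 and DESeq2 had 3, where the shares of all tested genes were 15.2% and 12.6%. Below 0 were 51.1% of all tested genes and 73.3% of those with a mean of at least 10000 normalized counts. The latter class includes all loci of the antenna and electron transfer lists. Of genes with a mean of at least 100000, 91.3% were below 0, with a median of -0.25. That class includes every antenna locus but LOC_Os01g52240, and some of the electron transfer loci. The list of plastocyanin, ferredoxin and ferredoxin-NADP reductase, which carry electrons to and from photosystem I, held 4 loci. All were below 0 without a call, with a median of -0.25, from -0.45 for LOC_Os08g01380 (SE 0.15, edgeR adjusted p = 0.161) to -0.13 for LOC_Os06g01210. In DESeq2, LOC_Os08g01380 had an adjusted p of 0.0108 and likewise missed a call through the fold limit. By unadjusted p, edgeR had 1 of the 4 and DESeq2 had 2. The 2 loci listed as GOLDEN2-like factors, which activate light-harvesting genes, had log2 fold changes of -0.18 (LOC_Os06g24070) and -0.08 (LOC_Os01g13740), without a call and with 0 by unadjusted p in both tools. DESeq2 and limma-trend called 0 genes in these 4 lists, where they called 4.0% and 3.0% of all tested genes. GL-1 exceeded GL-2 in all 9 core loci, all 8 antenna loci and all 4 electron transfer loci, and in neither GOLDEN2-like locus. This held for 9633 of the 19280 tested genes. The medians of the lists moved with the GL libraries, to -0.07 without GL-1 and -0.39 without GL-2 for the core and to -0.12 and -0.43 for the photosystem II antenna. For electron transfer they were -0.15 and -0.33. The GOLDEN2-like median went the other way, to -0.27 without GL-1 and to 0.04 without GL-2, where both loci were above 0. On log2(TPM + 1) without TMM factors, 6 of the 9 core loci, 7 of the 8 antenna loci, 3 of the 4 electron transfer loci and 1 of the 2 GOLDEN2-like loci were below 0. On that scale 23.2% of all tested genes were below 0, and their median was 0.14.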

How the data were processed

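Poly(A) RNA libraries of GL and OE5 leaves, 2 biological replicates per genotype, were sequenced as paired reads. Per the submitters' processing notes and the study's methods, the authors trimmed reads with fastp 0.20.1, mapped them with HISAT2 2.1.0 to the Nipponbare genome (MSU release), and deposited read counts per gene and TPM, both from TPMCalculator. Strand use and the handling of multimapped reads are not given in the sources used here. Reads shared by near-identical genes may therefore be split. The deposited TPM equal counts over a gene length shared by all libraries, scaled to the library. The 4 bisulfite libraries were not analysed here, and OsPRR37 itself is not reported here.

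Genes whose TPM summed to at least 2 over the replicates of GL or of OE5 were tested (19280 of 35961, all 6 members included) on the counts with edgeR 4.0.16 (TMM, quasi-likelihood test, prior count 2) in R 4.3.3. P-values were adjusted over all tested genes by Benjamini-Hochberg, and a gene was called when its adjusted p was below 0.05 and its levels differed by more than 1.5-fold. Fold changes are OE5 over GL. The standard error (SE) was taken as the size of the log2 fold change divided by the root of its F statistic, and the 95% intervals built on it are approximate. Single values per library were compared by exact permutation tests. Replicate counts differed by more than counting noise (173 in GL and 51.5 in OE5 as chi-square over its degrees of freedom). Counting both mates of a pair raises these ratios. Counts halved and rounded were also tested with edgeR. The p-values measure the spread between these libraries only. DESeq2 1.42.0, which the authors used, limma 3.58.1 on log2(TPM + pseudocount of 1 or 0.1), other filters and normalizations, a replicate block and leaving out each library were alternatives. The steps were tested on simulated data.

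Lhca names follow the usual naming of these loci, and 0 identifiers matched the RefSeq gene table. The text names all members, the called loci of each list or otherwise those of lowest and highest log2 fold change, and the 2 genes of most similar profile. The members and lists were chosen with earlier results of these data known.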

Additional observations from a re-analysis of the deposited data

How the results depend on the processing

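No Lhca gene and no gene of the 4 photosynthesis lists was called under any alternative. Over the whole table, 653 genes were called (407 higher and 246 lower in OE5), against 1207 (776 and 431) without the low-value filter and 344 (249 and 95) at a fold over 2. On log2(TPM + 1) without TMM, limma called 481 higher and 98 lower, and with a pseudocount of 0.1 it called 93 lower. Leaving out 1 library gave 194 to 1270 calls, 142 to 761 higher and 52 to 509 lower. There were 1270 without GL-1, 1036 without GL-2, 194 without OE5-1 and 221 without OE5-2. Lhca4 turned to 0.097 and Lhca5 to 0.081 in limma with either pseudocount. With 1 library left out, log2 fold changes ran from -0.31 to -0.06 for Lhca1, -0.44 to -0.30 for Lhca2, -0.43 to -0.18 for Lhca3, -0.17 to 0.060 for Lhca4, -0.20 to 0.051 for Lhca5 and -0.24 to 0.55 for Lhca6. The log2 difference in summed Lhca TPM ran from -0.16 to 0.11. The cause of these shifts was not tested. A replicate block gave 708 calls and changed no call among the members (Lhca2 at -0.37, adjusted p = 0.252 from edgeR). The replicate numbers are not known to pair the libraries, and over all tested genes, which are not independent, libraries of 1 number deviated from their genotype means with a Pearson r of 0.13 and a Spearman rho of -0.12. Where 1 library of a genotype was left, it was assumed to vary like the other genotype. The SE of Lhca6 (0.25) was the largest among the members, and its GL libraries differed by a log2 of 0.79.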
